A study of Mus musculus with 4 samples.

Results

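RNA levels of the nuclear genes for the mitochondrial respiratory chain were compared in mouse blastocysts grown in the presence of α-ketoglutarate (α-KG) or of 2-hydroxyglutarate (2-HG). The genes were chosen by name: those called Nduf followed by a, b, c, s or v and a digit, Uqcr, Cox4 to Cox8, or Atp5, without pseudogenes and clone genes. This gave 80 of the 53715 genes in the table, 37 for complex I, 8 for complex III, 18 for complex IV and 17 for complex V. Embryos of the strain C57BL/6 were flushed from the oviduct as zygotes, grown in the medium KSOM and treated from the stage with both pronuclei. The 4 groups were α-KG at 0.15 mM, its own negative control, 2-HG at 0.3 mM, and its own negative control. Each group holds 1 library, so no difference below has a replicate check and none was tested. How many embryos went into a library and which enantiomer of 2-HG was used are not stated in the labels.

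The respiratory chain moves electrons from NADH and succinate to oxygen and pumps protons across the inner mitochondrial membrane, and the ATP synthase uses the proton gradient to make ATP. Complex I (NADH dehydrogenase) passes electrons to ubiquinone, complex III (the cytochrome bc1 complex) passes them on to cytochrome c, complex IV (cytochrome c oxidase) hands them to oxygen, and complex V is the ATP synthase. Most subunits come from nuclear genes and a few from the mitochondrial genome, so the complexes are assembled from both.

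All values are levels in TPM (transcript abundance scaled for transcript length and library total), or differences of log2(TPM + 1) between libraries, as computed by the authors up to TPM. The libraries had 9062 to 9417 genes at 5 TPM or more, and mitochondrially encoded mRNAs took 4.57% to 5.47% of all TPM. Of 13 blastocyst markers, 9 were at 5 TPM or more in all 4 libraries, led by the keratins Krt8 and Krt18. Gata4 and Sox17, of the primitive endoderm, were low throughout, at no more than 1.67 TPM. Gata6 and Pdgfra, of the same lineage, were at 161 to 212 TPM and at 4.13 to 7.84 TPM. Sox2, of the epiblast, was at 9.18 TPM with α-KG and 8.91 TPM in its control. It was at 1.92 TPM with 2-HG and 2.38 TPM in its control. Markers of cumulus, oviduct and blood cells summed to 0.81 to 3.49 TPM per library. Of these 10 genes 6 to 8 were listed at 0 per library, Amh, Fshr and Has2 of cumulus and granulosa cells in all 4. In such bulk samples, fewer cells of a type and less RNA per cell cannot be told apart.

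Many nuclear respiratory genes are known to carry sites for the factor NRF1 in their promoters, and for ETS factors such as GABP and for YY1. Promoters, 250 bases before to 50 after an annotated start, were in the RefSeq table (build GRCm38.p6) for 66 of the 80 genes. Those of 4 genes are printed. Uqcrc1 and Cox7b2 were at least 2-fold apart between libraries, Atp5g2 is an ATP synthase gene with the strict NRF1 word and a lower level with 2-HG, and Ndufs3 is a core subunit gene that was listed near 0. Capitals mark matches, on either strand, to the palindromic NRF1 consensus (the strict word), to the same word with any base at its sixth position (the relaxed word), to CCGGAAGT for ETS factors and to AAGATGGC for YY1. Every strict NRF1 match is also a relaxed one.
Uqcrc1, chr9:108936398-108936697, strand +: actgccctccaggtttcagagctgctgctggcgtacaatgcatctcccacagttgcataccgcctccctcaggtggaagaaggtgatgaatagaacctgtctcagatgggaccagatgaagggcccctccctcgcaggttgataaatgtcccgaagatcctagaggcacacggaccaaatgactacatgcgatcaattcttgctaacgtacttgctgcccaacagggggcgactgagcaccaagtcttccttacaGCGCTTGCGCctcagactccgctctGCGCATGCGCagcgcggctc
Atp5g2, chr15:102670998-102671297, strand -: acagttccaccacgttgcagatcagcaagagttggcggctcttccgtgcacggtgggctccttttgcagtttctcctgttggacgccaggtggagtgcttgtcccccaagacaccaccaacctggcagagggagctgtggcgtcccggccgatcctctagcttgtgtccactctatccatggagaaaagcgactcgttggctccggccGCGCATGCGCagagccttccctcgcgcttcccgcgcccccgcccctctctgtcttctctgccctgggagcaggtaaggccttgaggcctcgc
Cox7b2, chr5:71548156-71548455, strand -: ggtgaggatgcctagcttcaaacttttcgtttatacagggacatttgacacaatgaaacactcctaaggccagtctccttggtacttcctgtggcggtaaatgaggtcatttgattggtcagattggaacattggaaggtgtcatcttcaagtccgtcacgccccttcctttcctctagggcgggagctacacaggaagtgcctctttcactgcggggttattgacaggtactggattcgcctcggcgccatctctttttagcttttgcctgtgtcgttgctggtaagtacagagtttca
Ndufs3, chr2:90904672-90904971, strand -: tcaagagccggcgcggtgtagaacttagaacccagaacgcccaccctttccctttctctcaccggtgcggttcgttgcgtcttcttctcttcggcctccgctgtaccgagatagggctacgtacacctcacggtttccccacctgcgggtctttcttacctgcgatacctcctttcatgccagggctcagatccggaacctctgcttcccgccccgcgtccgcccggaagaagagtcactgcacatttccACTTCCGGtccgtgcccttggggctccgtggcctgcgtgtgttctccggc
The Uqcrc1 window held NRF1 words that begin 6 and 31 bases into the transcript, the Atp5g2 window held the strict word 42 bases before the start, and the Cox7b2 window held none of the 4 words. The Ndufs3 window held the ETS word at the start itself. The relaxed NRF1 word stood in 15 of the 66 promoters (22.7%), against 13.1% of 7382 promoters of genes at 5 TPM or more and 5.19% of all 27025 genes. It was found in 7 of 32 complex I genes, 1 of 5 of complex III, 1 of 13 of complex IV and 6 of 16 of complex V. The strict word stood in 5 of the 66 (7.58%), against 2.61% of expressed and 1.07% of all genes. Atp5g2, Atp5k, Cox6a1, Ndufa11 and Uqcrc1 held it. With 2-HG against its control, Atp5g2 and Uqcrc1 differed by -0.67 and -3.37. Atp5k, Cox6a1 and Ndufa11 differed by 0.11, 0.02 and 0.11, to the other side. The YY1 word stood in 11 members (16.7%, against 6.15% and 3.19%), all of complexes I and V. The ETS word stood in 5 members (7.58%), against 10.96% of expressed genes and 4.31% of all. Each match is a description of these windows.

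The subunit genes were among the most abundant mRNAs in all 4 libraries. 68 of the 80 averaged at least 100 TPM, a level reached by 1769 of the 9315 genes that averaged 5 TPM or more (19.0%). Together they took 4.37% of all TPM with α-KG and 4.44% in its control, and 4.43% with 2-HG and 4.15% in its control. Complex I had the lowest median level per gene, 329.9 TPM with α-KG, 341 TPM in its control, 350.2 TPM with 2-HG and 311 TPM in its control. Complex III had 611 TPM with α-KG, 608 TPM in its control, 583 TPM with 2-HG and 626 TPM in its control. The medians of complex IV were 642 TPM, 581 TPM, 584 TPM and 583 TPM in the same order of libraries. They include 7 forms of particular adult tissues, most of them listed at or near 0. For the 10 general forms alone they were 1245, 1311, 1207 and 1146 TPM in that order. For complex V they were 644 TPM with α-KG, 809 TPM in its control, 636 TPM with 2-HG and 595 TPM in its control. In each library the complex I median was thus the lowest of the 4, and the order of the other 3 differed between libraries. With only its general forms counted, complex IV had the highest median in each library.

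**Figure D1:**
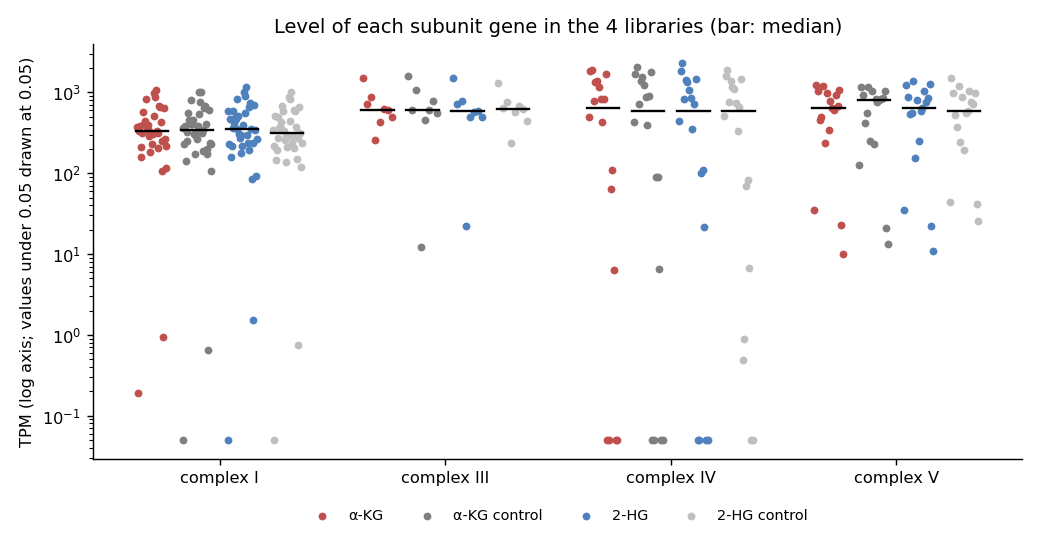
Level of each of the 80 subunit genes in TPM (log axis) by complex in the α-KG, α-KG control, 2-HG and 2-HG control libraries, with points for genes and a bar at each median. Most genes lie between 100 and 2322 TPM. Uqcrc1 of complex III is at 22.2 TPM with 2-HG, and at 12.3 TPM within the control of the α-KG pair.

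Most members differed little between the 4 libraries. 74 of the 80 were at 5 TPM or more in every library, and for these the median ratio of the highest to the lowest library was 1.28. It stayed under 1.5 in 61 of the 74 (82.4%), against 52.4% of the 8164 genes at 5 TPM or more in all libraries and 73.2% of the 1769 genes with a mean of at least 100 TPM. Cox6a1 of complex IV had the narrowest range, with 1337 TPM with α-KG, 1375 TPM in its control, 1417 TPM with 2-HG and 1397 TPM in its control. Cox5a, which binds near the matrix side of the oxidase, was the most abundant member. It had 1919.9 TPM with α-KG, 2079 TPM in its control, 2322 TPM with 2-HG and 1909 TPM in its control. Both genes stayed within a ratio of 1.22 across libraries.

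A member was counted as different when its log2(TPM + 1) differed by at least 1, or 2-fold, between a pair of libraries with at least 5 TPM in either. With α-KG, 2 of the 74 members past that minimum (2.70%) differed from the α-KG control, Uqcrc1 higher and Atp5a1 lower. Among all 9878 genes 7.31% did, 4.21% higher and 3.1% lower, and among the genes with a mean of at least 100 TPM 1.19% did, 0.678% higher and 0.509% lower. With 2-HG, 3 of 74 (4.05%) differed from the 2-HG control, Cox7b2 higher and Uqcrc1 and Atp5sl lower. The background was 8.01% of 9834 genes, 2.36% higher and 5.65% lower, and 1.47% of the abundant ones, 0.509% higher and 0.961% lower. Between the control libraries 2 of 74 (2.70%) differed, Uqcrc1 higher and Atp5a1 lower in the 2-HG control. There the background was 8.86% of 9927 genes, 5.99% higher and 2.87% lower, and 2.54% of the abundant ones, 1.92% higher and 0.622% lower. In each comparison the share of members past the rule was below that of all genes and above that of the genes with a mean of at least 100 TPM. Each count rests on 2 or 3 genes, so nothing is read from it about the set.

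No complex as a whole stood far from 0. With α-KG, the median difference from the α-KG control was 0.04 for complex I, -0.08 for complex III, -0.06 for complex IV and -0.06 for complex V, and 0.05 over all genes. With 2-HG, the median difference from the 2-HG control was 0.13 for complex I, -0.02 for complex III, 0.16 for complex IV and 0.02 for complex V, against -0.12 over all genes. Of 35 complex I members past the minimum, 26 were above 0 with 2-HG, as were 12 of 14 of complex IV, 4 of 8 of complex III and 10 of 17 of complex V. Over all genes 3699 of 9834 were above 0, and 796 of the 1769 with a mean of at least 100 TPM. In the 2-HG control set against the α-KG control the medians were -0.16, -0.10, -0.15 and -0.05 for complexes I, III, IV and V, against 0.09 over all genes. The comparisons with 2-HG and between the controls share the 2-HG control library. Against the α-KG control, the 2-HG library had a complex I median of 0.026 and a complex IV median of 0.041. The α-KG library, set against the 2-HG control, had medians of 0.13 for complex III and 0.11 for complex IV, of opposite sign to those above. Scaling the libraries by their median ratio put the complex III median with 2-HG at 0.10, also on the other side of 0.

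**Figure D2:**
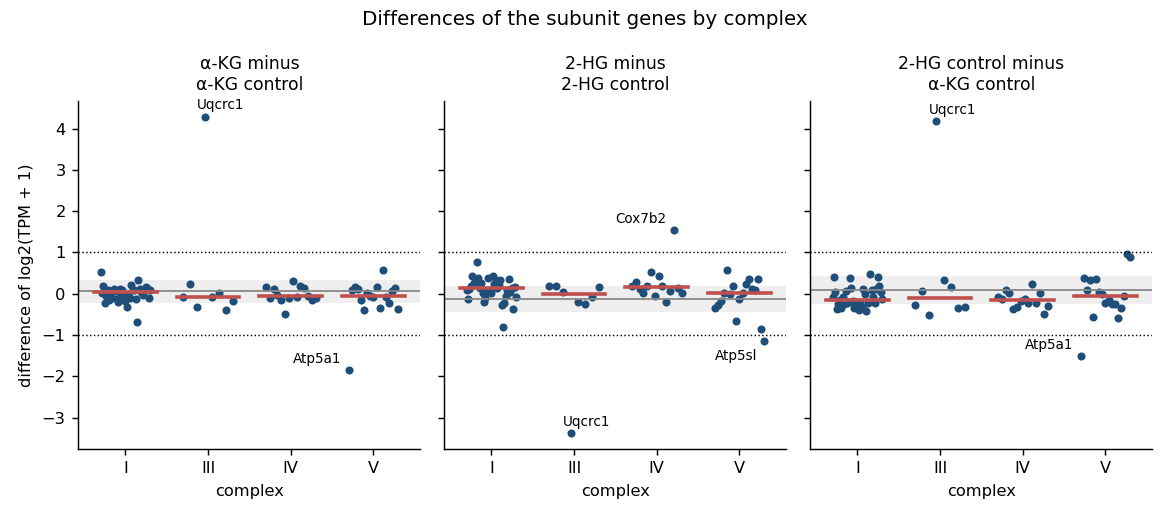
Differences of log2(TPM + 1) of the subunit genes by complex for α-KG minus its control, 2-HG minus its control, and the 2-HG control minus the α-KG control. Points are genes, red bars medians, the grey band the quartiles and the grey line the median of all genes, and dotted lines mark 2-fold. Most members lie inside the dotted lines, and Uqcrc1 lies at 4.29, -3.37 and 4.18.

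Complex I takes electrons from NADH through a chain of iron-sulfur clusters held by core subunits, around which many accessory subunits are wrapped. Of the 7 nuclear core subunits, 6 were past the minimum in each comparison and none differed 2-fold. Ndufs1, the largest iron-sulfur subunit, came closest. It was at 108 TPM with α-KG and 173 TPM in its control, and at 86.0 TPM with 2-HG and 150.3 TPM in its control. It was lower in both treated libraries, by differences of -0.68 and -0.80, while the controls differed by -0.20 (2-HG control minus α-KG control). On the opposite strand its exons share 489 bases with the long noncoding RNA gene Ino80dos, at 1.83 to 2.65 TPM, and 9 bases with Eef1b2, a translation elongation factor gene.

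Ndufv1, which binds NADH, was at 116 TPM with α-KG and 106 TPM in its control, and at 92.8 TPM with 2-HG and 121 TPM in its control. It leaned to opposite sides with the compounds, at differences of 0.12 for α-KG and -0.38 for 2-HG, both under the 2-fold rule. Ndufs7, an iron-sulfur subunit, ran from 614 to 689.6 TPM over the 4 libraries, and Ndufs8, another, from 235 to 340.1 TPM.

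The core subunit gene Ndufs3 (ENSMUSG00000005510.9, chromosome 2, 90894634 to 90904827 on the minus strand) was listed at 0.95 TPM with α-KG, 0.64 TPM in its control, 1.53 TPM with 2-HG and 0.75 TPM in its control. All 4 values lie far below those of the other 6 core genes, the lowest of which was 86.0 TPM. Its exons share 88 bases with Kbtbd4, a gene on the opposite strand that was listed at 0 in all 4 libraries, as was the neighbouring Ptpmt1. Mtch2, a mitochondrial carrier gene within 30000 bases, was at 196 to 304 TPM. Whether these low values reflect the embryos or the counting was not tested.

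None of the 28 accessory subunits of complex I differed 2-fold in any comparison. With 2-HG 22 of them were above 0 relative to its control, at a median of 0.14 and a highest difference of 0.44 (Ndufb5). In the 2-HG control 20 were below 0 relative to the α-KG control, at a median of -0.21. Over all genes 3699 of 9834 were above 0 with 2-HG. Below 0 between the controls were 4138 of 9927. Genes with a mean of at least 100 TPM gave 796 and 734 of 1769 by the same counts. Those among them with coding transcripts of up to 681.5 nt gave 146 and 147 of 203, so the accessory counts were near those of short, abundant genes. With α-KG the accessory subunits were evenly split, 14 above and 14 below 0. Ndufa1, a small X-linked membrane subunit, had the largest difference with α-KG among them, 0.53, at 329 TPM with α-KG and 227 TPM in its control. It was at 229 TPM with 2-HG and 216 TPM in the 2-HG control, so the α-KG library stood above the other 3. Against most of the accessory set, 6 genes were below 0 with 2-HG and 8 were above 0 between the controls. Ndufa9 and Ndufa10 were among both. Ndufa9 was at 394 TPM with α-KG and 451 TPM in its control, and at 510 TPM with 2-HG and 589 TPM in its control. Ndufa10 was at 386 TPM with α-KG and 385 TPM in its control, and at 471 TPM with 2-HG and 511 TPM in its control. For both genes the pair of the 2-HG experiment was the higher.

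Ndufa4, named as a complex I gene but known as a subunit associated with complex IV, was at 373 TPM with α-KG and 364 TPM in its control, and at 591 TPM with 2-HG and 345 TPM in its control. The 2-HG library stood above the other 3, which were close together, and the difference from its control was 0.77, under the 2-fold rule. Its paralog Ndufa4l2, a hypoxia-induced gene in other cells, was listed at 0.19 TPM with α-KG and at 0 in the other libraries.

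Complex III carries the largest difference of the set. Uqcrc1 (ENSMUSG00000025651.14, chromosome 9, 108936633 to 108949623 on the plus strand) encodes core protein 1, which together with core protein 2 forms the matrix-facing part of the complex. It was at 258 TPM with α-KG and 12.3 TPM in its control, and at 22.2 TPM with 2-HG and 239.7 TPM in its control. The α-KG library and the 2-HG control were high and the other 2 libraries low. The difference was 4.29 for α-KG against its control, -3.37 for 2-HG against its control, and 4.18 between the controls (2-HG control minus α-KG control). The difference between the control libraries was thus close to that with α-KG and larger in size than that with 2-HG. Exchanging the controls removed it for α-KG, at 0.11, and turned it for 2-HG, at 0.81.

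Uqcrc2, which encodes core protein 2, was at 434 TPM with α-KG and 456 TPM in its control, and at 495 TPM with 2-HG and 568 TPM in its control. Uqcrfs1, the Rieske iron-sulfur protein, was at 621 TPM with α-KG and 612 TPM in its control, and at 578 TPM with 2-HG and 688 TPM in its control. Neither partner followed the pattern of Uqcrc1, and both stayed within 0.32 on the log2 scale in each comparison. Cyc1, the cytochrome c1 gene, which the name rule leaves out, was at 269 to 289 TPM. No exon of another gene in the table overlaps Uqcrc1, and its neighbours within 30000 bases were at no more than 1.57 TPM. These values do not cover other ways of misassigning reads. Whether the Uqcrc1 levels reflect the embryos or the counting was not tested. The small subunits Uqcr10, Uqcr11, Uqcrb, Uqcrh and Uqcrq ran between 443 and 1602 TPM. Uqcrb, which helps to hold ubiquinone, was at 872 TPM with α-KG and 1086 TPM in its control, and at 779.9 TPM with 2-HG and 761 TPM in its control. Uqcrh, the hinge protein beside cytochrome c1, was at 601 TPM with α-KG and 793 TPM in its control, and at 589 TPM with 2-HG and 618 TPM in its control. In both genes the α-KG control was the highest library.

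**Figure D3:**
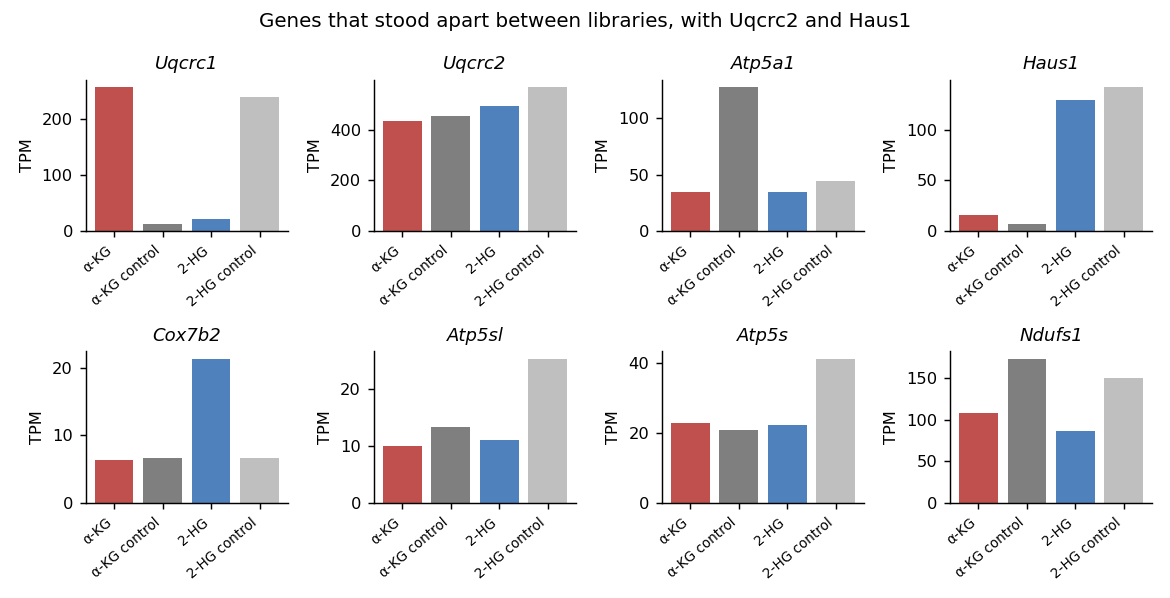
TPM (linear axes from 0) of the genes that stood apart between libraries in the α-KG, α-KG control, 2-HG and 2-HG control libraries, with Uqcrc2 beside Uqcrc1 and Haus1 beside Atp5a1; each bar is 1 library. Uqcrc1 is high at 258 and 239.7 TPM in the α-KG and 2-HG control libraries, and Uqcrc2 stays between 434 and 568 TPM.

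The 10 general forms of the nuclear complex IV subunits were all within 2-fold in every comparison. Their differences with α-KG lay between -0.16 and 0.15, with 2-HG between -0.06 and 0.28, and between the controls between -0.48 and 0.08. Cox4i1, which takes part in the control of the oxidase by ATP, was at 1865 TPM with α-KG and 1680.3 TPM in its control, and at 1828 TPM with 2-HG and 1600.5 TPM in its control. Cox8a was at 1681 TPM with α-KG and 1808 TPM in its control, and at 1486 TPM with 2-HG and 1473 TPM in its control. Cox7c differed most between the controls, at 653 TPM in the 2-HG control against 914 TPM in the other control. With 2-HG, 9 of the 10 were above 0 relative to its control, and in the 2-HG control 8 of the 10 were below 0 relative to the α-KG control. All genes gave 3699 of 9834 and 4138 of 9927 by the same counts. Genes with a mean of at least 100 TPM gave 796 and 734 of 1769.

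Several complex IV subunits have a second gene that is used in particular adult tissues, such as heart and skeletal muscle, lung or testis. Of these 7 tissue forms, Cox8b and Cox8c were listed at 0 in all 4 libraries, and Cox4i2 and Cox6a2 reached 0.48 and 0.90 TPM in the 2-HG control and were listed at 0 in the others. Cox7a1, the heart and muscle form, was well detected, at 111 TPM with α-KG and 89.6 TPM in its control, and at 109.9 TPM with 2-HG and 81.9 TPM in its control. It made up 6.11% to 7.82% of the TPM of Cox7a1, Cox7a2 and Cox7a2l together. Cox6b2, the testis form, was at 63.3 TPM with α-KG and 88.7 TPM in its control, and at 101 TPM with 2-HG and 70.1 TPM in its control. It made up 4.40% to 6.93% of the TPM of Cox6b1 and Cox6b2, so the general form dominated in both families.

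Cox7b2 (ENSMUSG00000049387.10, chromosome 5, 71442824 to 71548205 on the minus strand), the testis form of Cox7b, was the complex IV gene past the 2-fold rule. It was at 6.35 TPM with α-KG and 6.59 TPM in its control, and at 21.3 TPM with 2-HG and 6.67 TPM in its control. The 2-HG library stood above the other 3, which were nearly level, and the difference was 1.54. Unlike that of Uqcrc1, it did not depend on which control was used. Cox7b itself was at 351 TPM with 2-HG and 334 TPM in its control. Cox7b2 made up 5.73% of the TPM of the pair with 2-HG, against 1.44% to 1.96% in the other libraries. Cox7a2l, a paralog of Cox7a1 and Cox7a2, was at 492 TPM with α-KG and 434 TPM in its control, and at 446 TPM with 2-HG and 513 TPM in its control.

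**Figure D4:**
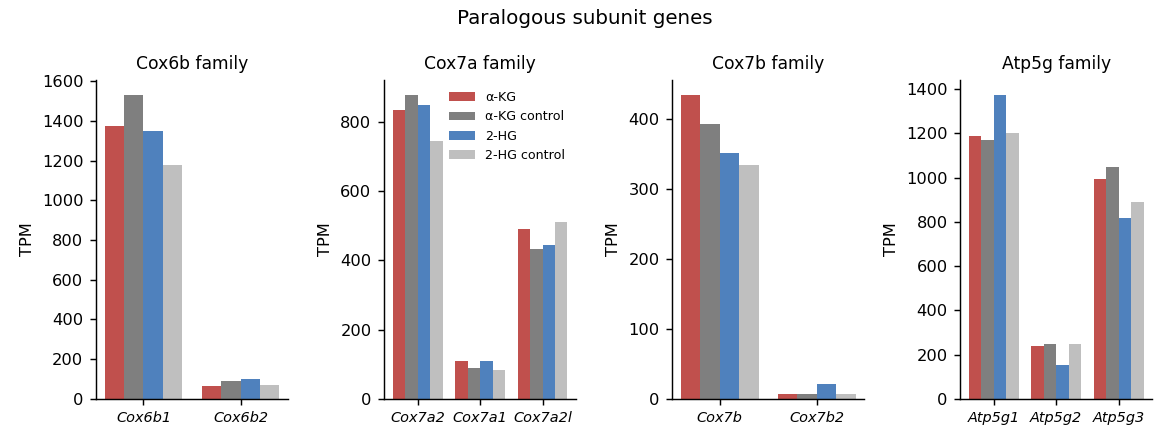
TPM (linear axes from 0) of paralogous subunit genes in the α-KG, α-KG control, 2-HG and 2-HG control libraries; each bar is 1 library. The general forms Cox6b1, Cox7a2 and Cox7b exceed their tissue forms in every library, and Cox7b2 is highest with 2-HG at 21.3 TPM.

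The catalytic head of the ATP synthase, F1, is built from α and β subunits around a rotating γ subunit. Atp5b, the β subunit, was at 1226 TPM with α-KG and 1159 TPM in its control, and at 1227 TPM with 2-HG and 1496 TPM in its control. Atp5a1, the α subunit (ENSMUSG00000025428.15, chromosome 18, 77773729 to 77782869 on the plus strand), was at 34.8 TPM with α-KG and 128 TPM in its control, and at 34.7 TPM with 2-HG and 44.1 TPM in its control. The α-KG control stood above the other 3 libraries, and the difference with α-KG was -1.84. In every library Atp5a1 lay far below Atp5b, although both subunits occur in the enzyme in equal number. Whether the low Atp5a1 values reflect the embryos or the counting was not tested.

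The exons of Atp5a1 share 129 bases with Haus1, a spindle gene on the opposite strand, and whether reads were assigned by strand is not given in the sources used here. Haus1 was at 15.6 TPM with α-KG and 7.07 TPM in its control, and at 129 TPM with 2-HG and 142 TPM in its control. Haus1 was low in the α-KG pair and high in the 2-HG pair, whereas Atp5a1 was high in the α-KG control and low in the other 3 libraries. The part of the overlap in the Atp5a1 values was not tested. Relative to the 2-HG control, the α-KG library had a difference of -0.33 for Atp5a1.

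Among the other F1 genes, Atp5c1 (γ) ran from 873 to 1041 TPM and Atp5d (δ) from 424 to 542 TPM. Atp5e (ε), a very small subunit, was at 498 TPM with α-KG and 553 TPM in its control, and at 559.7 TPM with 2-HG and 374 TPM in its control. The 2-HG control was the lowest library for Atp5e, and the difference with 2-HG was 0.58. In the peripheral stalk, which keeps the head from turning, Atp5f1 (subunit b) was at 614 TPM with α-KG and 809 TPM in its control, and at 1037 TPM with 2-HG and 1035 TPM in its control. Atp5h, Atp5j and Atp5o, of the same stalk, lay between 674 and 1274 TPM. All 4 stalk genes were above 0 with 2-HG relative to its control, by 0.00 to 0.36. So were 3699 of 9834 over all genes and 796 of the 1769 with a mean of at least 100 TPM.

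The rotating ring of the ATP synthase is made of subunit c, and the 3 genes Atp5g1, Atp5g2 and Atp5g3 are known to encode the same mature protein behind different import sequences. Atp5g1 was at 1186 TPM with α-KG and 1169.7 TPM in its control, and at 1374 TPM with 2-HG and 1202 TPM in its control. Atp5g3 was at 992 TPM with α-KG and 1048 TPM in its control, and at 816 TPM with 2-HG and 889.9 TPM in its control. Atp5g2, whose promoter is printed above, was the lowest, at 238 TPM with α-KG and 248 TPM in its control, and at 154 TPM with 2-HG and 246 TPM in its control. With 2-HG the Atp5g1 share of the family was thus 58.6%, against 47.4% to 51.4% in the other libraries, and Atp5g2 differed by -0.67 from the 2-HG control. Atp5j2 (subunit f) was highest with α-KG, at 342 TPM against 231 TPM in its control, and was at 251 TPM with 2-HG and 195 TPM in its control.

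A pair of genes carries the Atp5 name without being subunits of the core enzyme. Atp5sl, also called Dmac2 and known in human cells as an assembly factor of complex I, was at 9.97 TPM with α-KG and 13.3 TPM in its control, and at 10.97 TPM with 2-HG and 25.3 TPM in its control. The 2-HG control stood above the other 3 libraries, and the difference with 2-HG was -1.14. It was under the 2-fold rule against the α-KG control, at -0.25. Atp5s, a coupling factor, followed the same pattern, at 22.9 TPM with α-KG and 20.9 TPM in its control, and at 22.2 TPM with 2-HG and 41.3 TPM in its control. Both differences therefore turned on the level of the 2-HG control.

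Among the members, the sign of a difference went with the length of the mRNA, a pattern looked for after the values had been seen. The length was that of the coding transcript with the longest reading frame in GENCODE M21, and the median of the 74 members was 681.5 nt. Of the 37 members up to that length, 30 were lower in the 2-HG control relative to the other control, at a median difference of -0.22. The 37 longer members had a median of 0.08, with 21 above 0 and 16 below. With 2-HG, 34 of the 37 short members were above the 2-HG control, at a median of 0.19, and 18 of the 37 longer ones, at a median of -0.06. Short-transcript members were thus the low ones in the 2-HG control. With α-KG against its control the medians of short and long members were -0.06 and 0.06.

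The rank correlation (Spearman) of difference with length over the 74 members was -0.54 for 2-HG minus its control, 0.51 for the 2-HG control minus the α-KG control and 0.08 for α-KG minus its control. The members share their libraries and most are short and abundant, so these values only describe the set. With the α-KG control in place of the 2-HG control under 2-HG, the correlation was 0.12 and the short members had a median of 0.01. Over the 1642 genes with a length and a mean of at least 100 TPM, 147 of 203 short ones were lower in the 2-HG control relative to the other control, at a median of -0.21, and the median of the 1439 longer ones was 0.13. Over all 8702 expressed genes with a length, 230 of 361 short ones were below 0, at a median of -0.13, and the 8341 longer ones had a median of 0.12, while the rank correlation was -0.09. The medians of short and longer genes thus split the same way in both wider sets, which include the members themselves. The rank correlation was 0.18 over the 1642 genes, and over all genes its sign was opposite to that over the members. With 2-HG against its control, 146 of the 203 short genes were above 0. In that comparison the rank correlation was -0.18 over the 1642 genes and -0.015 over all 8678 expressed genes with a length. Core and accessory subunits of complex I differed in this measure, with median lengths of 1623 and 681.5 nt. The lengths of the classes overlap: the accessory genes Ndufa10 (2020 nt) and Ndufa9 (1445 nt) differed by 0.41 and 0.38 between the controls (2-HG control minus α-KG control), and Ndufs4 (1698 nt) and Ndufv3 (1582 nt) by 0.09 and -0.14. What sets the low short transcripts in the 2-HG control was not tested.

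**Figure D5:**
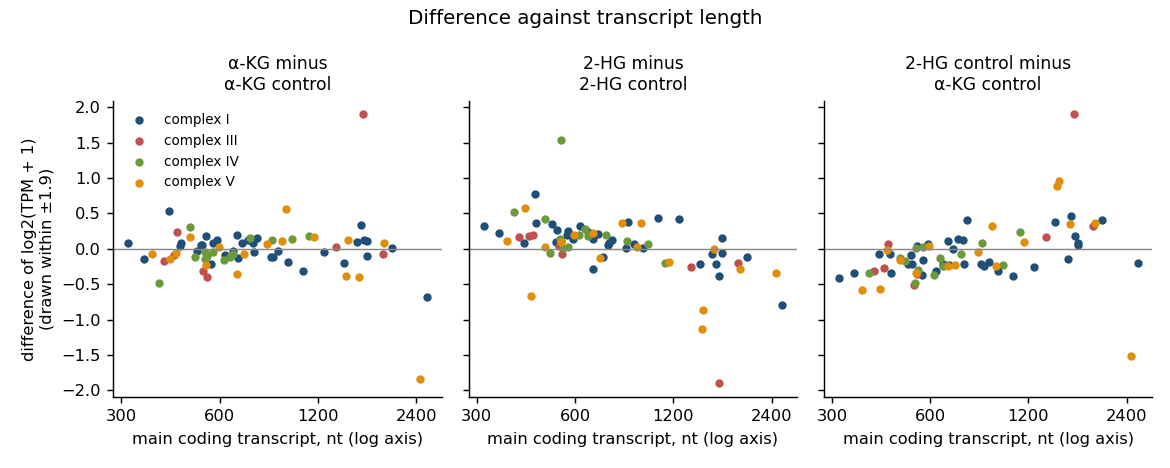
Difference of log2(TPM + 1) of each subunit gene (drawn within ±1.9, so that Uqcrc1 sits at the edge) against the length of its main coding transcript in nt (log axis), coloured by complex, for α-KG minus its control, 2-HG minus its control, and the 2-HG control minus the α-KG control. Most short genes lie above 0 in the middle panel and below 0 in the right panel. The Spearman correlations in these panels are -0.54 and 0.51, against 0.08 in the left panel.

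The remaining genes of the pathway came from lists set by name. Of 12 listed names of further nuclear subunits and carriers, 10 were matched in the table, Atp5md being another name of the matched Usmg5. None differed 2-fold with α-KG. With 2-HG only Cyct, the testis cytochrome c, did, at 34.2 TPM with 2-HG and 78.7 TPM in its control, while the somatic Cycs was at 219.9 TPM with 2-HG and 190.5 TPM in its control. The 4 subunits of complex II, Sdha, Sdhb, Sdhc and Sdhd, were under the 2-fold rule in every comparison. Sdhd, one of its membrane anchors, was at 19.7 TPM with α-KG and 12.99 TPM in its control, well under Sdhb, at 248 TPM with α-KG and 310.5 TPM in its control. Of the 13 mitochondrially encoded mRNAs, none differed 2-fold with α-KG and 2 did with 2-HG, both lower, at a median of 0.23 over all 13. Over all genes 8.01% differed 2-fold with 2-HG. The 2 lower mRNAs were mt-Atp6, at 59.9 TPM with 2-HG and 718 TPM in its control, and mt-Co2, at 55.8 TPM with 2-HG and 113 TPM in its control. The neighbouring mt-Atp8 and mt-Co3 had differences of -0.82 and -0.41, under the rule. Their nuclear partners in complexes V and IV had medians of 0.02 and 0.16 in the same comparison. In all 4 libraries mt-Co2, mt-Co3, mt-Atp6 and mt-Atp8 lay within 55.8 to 718 TPM, as did mt-Nd3 and mt-Nd4l. The other mitochondrial mRNAs were at 3464 to 11814 TPM. Whether the low levels reflect the embryos or the counting was not tested.

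Of 11 genes that drive transcription of respiratory genes or of mitochondrial DNA, 10 were past the minimum. Gabpb1, a subunit of the ETS factor GABP, was the one past the 2-fold rule with α-KG, at 39.7 TPM with α-KG and 13.5 TPM in its control. It was at 25.6 TPM with 2-HG and 26.4 TPM in its control, so the α-KG control was the lowest library. Nrf1 was at 77.9 TPM with α-KG and 58.7 TPM in its control, and at 57.4 TPM in each library of the 2-HG pair. Gabpa, the DNA-binding subunit of GABP, was at 83.6 TPM with α-KG and 74.6 TPM in its control, and at 42.4 TPM with 2-HG and 69.9 TPM in its control. Its exons share 397 bases with Atp5j on the opposite strand. Tfam, which packages mitochondrial DNA, was at 20.2 to 22.2 TPM throughout, and the coactivator gene Ppargc1a was listed at 0 in all libraries but the 2-HG control, where it was barely above 0. With α-KG 7 of the 10 were above 0, at a median of 0.36, and with 2-HG 8 of the 10 were below 0, at a median of -0.14. The medians over all genes were 0.05 and -0.12, with 5508 of 9878 above 0 with α-KG and 6135 of 9834 below 0 with 2-HG.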

How the data were processed

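RNA of mouse blastocysts was sequenced in 4 libraries, 1 per group. The deposited unit is TPM, computed by the authors for each gene. The submitters' processing notes name the builds mm10 and GRCm38.p6 and the tools DESeq2, StringTie, Picard, HISAT2 and Trimmomatic; versions, roles and use of strand are not given in the sources used here. TPM keeps no read depth, so intervals and detection limits are left out. A second worksheet, with 8 columns of unlabelled libraries, was not used. Differences of log2(TPM + 1) were taken in Python 3.11.15 with pandas 2.3.3 where either library of a pair reached 5 TPM. The pseudocount shrinks the fold of low genes. A gene is past the 2-fold rule at a difference of 1 or more. With 1 library per group nothing was tested, and members' counts stand beside those of all genes. The arithmetic of the rule was checked on simulated data with planted folds. That check does not show how often noise between single libraries passes the rule. IDs were matched to GENCODE M21 (53620 of 53715), the source of positions (1-based, GRCm38), exon overlaps and transcript lengths. Named by rule were members past 2-fold, the extremes of each comparison and complex, paralogs, overlapping genes and the pathway lists; other members were named for their role with their values known. The length split and the removal of members with overlapping exons were added after seeing the data. Members and lists were chosen with earlier results of these data known. The values of 1 member are not reported here.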

Additional observations from a re-analysis of the deposited data

Results flagged for a closer look

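Uqcrc1 differed in opposite directions in the pairs of the 2 compounds, by 4.29 for α-KG minus its control and by -3.37 for 2-HG minus its control. With 1 library on each side the difference between the compounds was not tested. The control libraries stood 4.18 apart (2-HG control minus α-KG control), and the treated ones were at 258 TPM with α-KG and 22.2 TPM with 2-HG.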

How the results depend on the processing

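Of 216 values under other settings, 149 of the counts and medians stayed within 1.5 times (counts) or 0.1 on the log2 scale (medians), and 44 of the single-gene differences kept their direction and stayed past 2-fold, though not their size. In all, 11 medians and 1 single-gene difference changed sign, all of these medians being near 0 in the main setting. Without members whose exons overlap an expressed gene (a setting added after seeing the data), 0 members were lower with α-KG and 0 in the 2-HG control relative to the α-KG control, since Atp5a1 was removed. For α-KG against the mean of both controls the complex IV median was 0.043, of opposite sign. Against the 2-HG control, 0 members were higher with α-KG, and the medians were 0.11 over all members, 0.13 for complex III and 0.11 for complex IV, all 3 of opposite sign. For 2-HG, a pseudocount of 5 left 1 lower member, and median-ratio scaling gave medians of 0.21 over all members, 0.24 for complex I, 0.10 for complex III, 0.28 for complex IV and 0.13 for complex V. The complex IV median with 2-HG was 0.050 against the mean of both controls. Against the α-KG control, complex I was at 0.026 and complex IV at 0.041, and Uqcrc1 was at 0.81, opposite in sign. Regrouping the complexes put complex V at -0.16 between the controls (2-HG control minus α-KG control). Other than where stated above, the cause was not tested. No paired analysis was possible because each group holds 1 library, and leaving out a replicate was not possible either. The names Atp5md (matched as Usmg5) and Atp5mpl were not found.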
